A study of Caenorhabditis elegans with 2 samples.

Results

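The genes oma-1, oma-2, pos-1, mex-1, mex-3, mex-5, mex-6, pie-1, spn-4 and puf-5 of the nematode Caenorhabditis elegans encode RNA-binding proteins that the mother supplies to the oocyte and the early embryo. They were chosen by name, through the probes that the platform annotation assigned to exactly 1 gene, and all 10 were measured, out of 14777 genes with a value on both arrays. A single probe stood for 9 of them and 2 probes for pos-1. The samples were 2 preparations of RNA from glp-4 worms at the L2, the second larval stage, each hybridised once on a spotted 2-colour array. The other channel of both arrays held the same reference RNA, from wild-type worms and labelled mixed. At high temperature glp-4 mutants form only a small germline, and L2 larvae of any genotype lack oocytes and embryos. The sources used here do not give the glp-4 allele, the growth temperature, the stages pooled in the reference or whether the preparations were separate cultures. The p-values therefore measure the spread of 2 hybridisations, and that spread may be technical. Wild-type L2 larvae were not analysed here, so the effects of genotype and of stage cannot be told apart.

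Oocytes of this worm stop transcribing before they are fertilised, and the first embryonic divisions run on stored messenger RNA. Proteins of this group bind sites in those messages and decide when and in which cell they are translated, which sets apart germline from soma and anterior from posterior. Most of them (OMA-1, OMA-2, POS-1, MEX-1, MEX-5, MEX-6 and PIE-1) carry zinc fingers of the CCCH type, while MEX-3 has KH domains, SPN-4 an RNA recognition motif and PUF-5 Pumilio repeats. Their messages are made in the adult germline.

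Values are log2 ratios of the 2 channels, read as likely glp-4 L2 over reference. No dye or direction is stated. The ratio was read this way because the medians of 30 major sperm protein genes (-3.97 and -2.86 for preparations 1 and 2) and of 3 yolk protein genes (-7.16 and -6.80) lay below 0, and sperm and yolk are made only after the L2 stage. Those lists are therefore no independent finding, and every sign below would turn if the reading were wrong. Over all genes the medians were 0.10 and 0.02 for preparations 1 and 2. Signal over background is unknown, because no intensities were used, and the number of arrays limits the precision. In whole worms, fewer cells of a type and less RNA per cell cannot be told apart.

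The question was how far RNA of maternal RNA-binding proteins differed between glp-4 L2 larvae and the mixed reference. All 10 genes were below 0 on both arrays, and 7 were lower past the test, namely oma-1, oma-2, pos-1, mex-5, mex-6, spn-4 and puf-5. The other members, mex-1, pie-1 and mex-3, did not pass. The test was limma's moderated test of the mean log2 ratio against 0 with Benjamini-Hochberg adjustment over all genes and a threshold of 0.05. By this rule 221 of 14777 genes were lower, or 1.50%, and 0 of the 10 members were higher, against 0.365% of all genes. Without a test, each of the 10 members was reduced at least 2-fold on both arrays, against 7.35% of all genes, and 30.8% of all genes were below 0 on both arrays. At an unadjusted limma p under 0.05 all 10 members were lower, against 10.9% of all genes. At least 8-fold lower on both arrays were 7 members (0.799% of all genes), and at least 16-fold lower were 4, oma-2, pos-1, mex-5 and spn-4 (0.291%). The median of the members' means was -3.87, beside 0.08 over all genes.

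**Figure D1:**
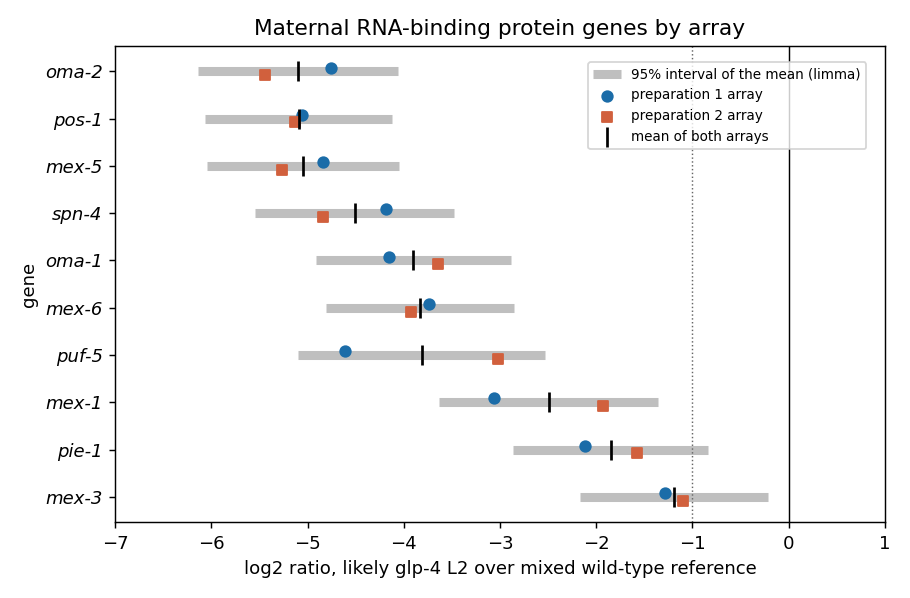
Log2 ratio (likely glp-4 L2 over reference, x axis) of each maternal RNA-binding protein gene (y axis), with the preparation 1 array as circles, the preparation 2 array as squares, the mean as a black tick and the 95% interval of the mean from limma as a grey bar. The solid line is at 0 and the dotted line at 2-fold lower; every array value lies left of the dotted line, from -5.44 for oma-2 to -1.10 for mex-3.

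The genes oma-1 and oma-2 encode closely related zinc finger proteins that act redundantly in the last steps of oocyte growth and maturation, and their proteins are destroyed around the first division of the embryo. The oma-2 signal of the glp-4 L2 channel was 0.037 of the reference in preparation 1 and 0.023 of it in preparation 2. On the log2 scale these ratios were -4.76 and -5.44, with a mean of -5.10 ± 0.48 (SD, n = 2; limma adjusted p = 0.0208). The mean corresponds to a 34.3-fold lower level, with a 95% interval of 16.7-fold to 70.5-fold. Both arrays placed oma-2 far down, and it ranked 16th from the bottom of all genes by its mean.

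The oma-1 ratio was 0.056 in preparation 1 and 0.080 in preparation 2, which is -4.16 and -3.64 on the log2 scale. Its mean of -3.90 ± 0.36 (SD, n = 2) was 14.9-fold lower than the reference, with an interval of 7.41-fold to 30.1-fold (limma adjusted p = 0.0257). Although both genes were lower on both arrays, oma-1 was less reduced than oma-2 in each case. The log2 ratio of oma-1 exceeded that of oma-2 by 0.60 in preparation 1 and by 1.80 in preparation 2. This difference was not tested, and probes of related genes can bind each other's RNA.

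The pair mex-5 and mex-6 encodes zinc finger proteins that gather in the anterior of the newly fertilised egg and keep germline proteins in the posterior. The mex-5 ratio was 0.035 in preparation 1 and 0.026 in preparation 2, or -4.84 and -5.27 on the log2 scale. The mean was -5.05 ± 0.30 (SD, n = 2), a 33.1-fold lower level with an interval of 16.6-fold to 66.3-fold (limma adjusted p = 0.0208). In mex-6 the ratios were 0.075 and 0.066, or -3.74 and -3.92 on the log2 scale for preparations 1 and 2.

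Both arrays thus gave nearly the same value for mex-6, whose mean of -3.83 ± 0.13 (SD, n = 2) was 14.2-fold lower than the reference (limma adjusted p = 0.0257). As in the oma pair, 1 gene was less reduced than its relative on both arrays. The log2 ratio of mex-6 exceeded that of mex-5 by 1.10 in preparation 1 and by 1.34 in preparation 2, a difference that was not tested. The gaps within both pairs, 1.20 and 1.22 on average, were about as wide as the gap between the 2 probes of pos-1, a single gene.

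POS-1 is a zinc finger protein of the posterior cells of the embryo that controls translation of maternal messages, among them that of the Notch receptor gene glp-1. The mean of its probes was -5.06 in preparation 1 and -5.13 in preparation 2, and the overall mean of -5.09 ± 0.05 (SD, n = 2) was 34.1-fold lower than the reference (limma adjusted p = 0.0208). By the mean of its probes it was the only member at least 32-fold lower on both arrays, which 0.0880% of all genes were. Its 2 probes differed. The lower probe read -5.57 and -5.88 on the preparation 1 and 2 arrays and the other -4.54 and -4.38. That other probe was 23.3-fold and 20.8-fold lower, short of 32-fold on both arrays. The gap of 1.03 and 1.50 between probes of this 1 gene was far wider than the difference of 0.07 between arrays. When probes were tested singly, both passed, with limma adjusted p of 0.0218 and 0.0226.

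The gene mex-1 encodes a zinc finger protein needed to keep PIE-1 and other factors in the germline cells, and PIE-1 blocks transcription there. The mex-1 ratio was 0.120 in preparation 1 and 0.262 in preparation 2, or -3.06 and -1.93 on the log2 scale. Its mean of -2.50 ± 0.80 (SD, n = 2) was 5.64-fold lower, with an interval of 2.55-fold to 12.5-fold, and missed the threshold (limma adjusted p = 0.0677). It was past the threshold after each array was centred on the median of all genes, at a limma adjusted p of 0.0447, and after quantile normalization, at 0.0336, with a range of 0.0336 to 0.0861 over all tested settings.

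The pie-1 ratio was 0.230 in preparation 1 and 0.335 in preparation 2. The log2 values of -2.12 and -1.58 gave a mean of -1.85 ± 0.38 (SD, n = 2), a 3.60-fold lower level with an interval of 1.78-fold to 7.28-fold (limma adjusted p = 0.102). Both mex-1 and pie-1 were thus lower than the reference on both arrays without passing the test over all genes.

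SPN-4 is needed for the orientation of the spindle in early divisions and for translational control of maternal messages. The spn-4 ratio was 0.055 in preparation 1 and 0.035 in preparation 2, or -4.18 and -4.84 on the log2 scale. The mean of -4.51 ± 0.46 (SD, n = 2) was 22.8-fold lower, with an interval of 11.1-fold to 46.7-fold (limma adjusted p = 0.0231).

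PUF-5 represses messages in growing oocytes, together with the related PUF-6 and PUF-7. The puf-5 ratio was 0.041 in preparation 1 and 0.123 in preparation 2, or -4.61 and -3.02 on the log2 scale. The difference of 1.58 between arrays was the largest among the members and was as large as or larger than that of 86.3% of all genes. The mean of -3.82 ± 1.12 (SD, n = 2) was 14.1-fold lower, with an interval of 5.77-fold to 34.4-fold (limma adjusted p = 0.0400). This call was lost when log2 ratios were limited to 5 in either direction, with a limma adjusted p of 0.0575, although neither puf-5 value lies beyond that limit. Over all tested settings the adjusted p of puf-5 ranged from 0.00751 to 0.0575.

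MEX-3 represses pal-1, the message of a posterior homeodomain protein, in the anterior of the embryo, and also acts in the distal germline. The mex-3 ratio was 0.412 in preparation 1 and 0.466 in preparation 2, or -1.28 and -1.10 on the log2 scale. This was the smallest reduction among the members, and both arrays gave nearly the same value. The mean of -1.19 ± 0.13 (SD, n = 2) was 2.28-fold lower, with an interval of 1.16-fold to 4.50-fold (limma adjusted p = 0.205). The small spread between arrays did not by itself carry the gene past the threshold, because limma pulls each gene's spread towards that of all genes. The standard error was 0.39 for mex-3 and also 0.39 for pos-1, which passed with a larger mean.

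In order of the mean, oma-2, pos-1 and mex-5 came first within 0.05 log2 units of each other, spn-4 followed, and oma-1, mex-6 and puf-5 lay within 0.09. The members mex-1, pie-1 and mex-3 came last. With the values of both arrays pooled, neighbours in this order overlapped except at 2 steps, between spn-4 and oma-1 and between pie-1 and mex-3. Compared on the same array, mex-5 was also below spn-4, puf-5 below mex-1 and mex-1 below pie-1 on both arrays. The step from spn-4 to oma-1 was only 0.03 in preparation 1 and 1.19 in preparation 2. By the mean, the step from puf-5 to mex-1 was the widest at 1.32, with 1.55 and 1.09 on the preparation 1 and 2 arrays, and their values overlapped by little, since puf-5 reached -3.02 and mex-1 began at -3.06.

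The arrays disagreed with no common direction. Of the 10 members, 5 were lower on the preparation 2 array (oma-2, pos-1, mex-5, mex-6 and spn-4) and 5 were higher there (oma-1, puf-5, mex-1, pie-1 and mex-3). The median absolute difference between arrays was 0.53 over the members and 0.63 over all genes. By rank, 7 members lay among the lowest 100 of 14777 genes by mean ratio, from oma-2 at rank 16 to puf-5 at rank 75. The remaining ranks were 293 for mex-1, 633 for pie-1 and 1544 for mex-3.

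**Figure D2:**
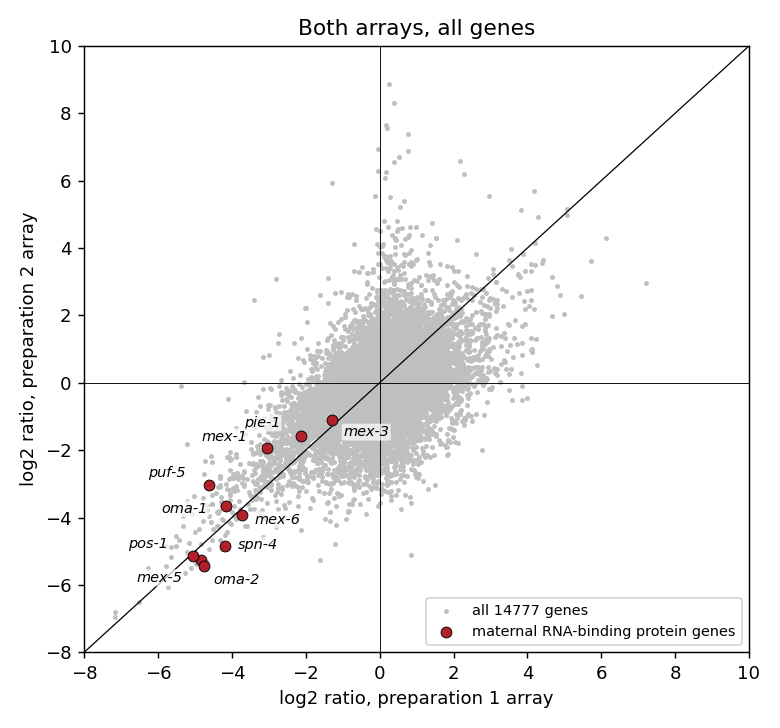
Log2 ratios on the preparation 1 array (x axis) and the preparation 2 array (y axis) for all 14777 genes in grey and the maternal RNA-binding protein genes in red, with the line of equal values. The 7 members past the test sit at the lower left end, and mex-1, pie-1 and mex-3 lie nearer to the bulk of genes.

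Genes that work with these proteins were compared next. Of 47 measured related genes, out of 56 listed, 8 passed the limma test as lower, 0 passed as higher and 39 did not pass. Of all genes, 1.50% were lower and 0.365% higher by this test. At least 2-fold lower on both arrays were 23 of the 47, against 7.35% of all genes. The genes gld-1, egg-3 and nos-3 also stand in the marker lists given further on. Among messages known to be bound or controlled by the group, 4 of 10 passed as lower, against 1.50% of all genes, 0 as higher, and 6 did not pass. At least 2-fold lower on both arrays were 7 of the 10, against 7.35% of all genes. The median over these 10 was -2.05, beside 0.08 over all genes. The yolk receptor gene rme-2 had values of -4.04 and -2.83 for preparations 1 and 2, with a mean of -3.43 ± 0.85 (SD, n = 2; limma adjusted p = 0.0400). The gene nos-2, which encodes a Nanos protein of the embryonic germline, was at -3.20 and -2.89 (mean -3.04 ± 0.22, SD, n = 2, limma adjusted p = 0.0363). The Wnt gene mom-2 was at -2.93 and -3.0 (mean -2.97 ± 0.05, SD, n = 2, limma adjusted p = 0.0374). These genes were named for their large means among the targets called. Over all 10 targets the means ran from -3.43 to -0.14, and 9 were below 0 on both arrays, against 30.8% of all genes.

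Of 15 measured regulators and partners, 3 passed as lower, 0 as higher, and 12 did not pass, and the median was -2.25. They were rnp-8, zif-1 and cgh-1, the gene of a DEAD-box helicase that protects stored maternal messages (-3.64 and -4.27, mean -3.95 ± 0.44, SD, n = 2, limma adjusted p = 0.0257). The gene rnp-8 encodes a partner of the poly(A) polymerase GLD-2 and had a mean of -2.52 ± 0.06 (SD, n = 2, limma adjusted p = 0.0492). The gene zif-1 encodes the ubiquitin ligase adaptor that directs destruction of PIE-1, POS-1 and MEX-1 in somatic cells, and its message is repressed by OMA-1 and OMA-2, so that it stands in both lists. It was at -2.68 and -2.75 (mean -2.72 ± 0.05, SD, n = 2, limma adjusted p = 0.0437).

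Relatives by protein family were examined as well. Of 6 other PUF genes measured, 2 were lower and 4 did not pass, with a median of -1.38. The 2 were puf-6 (-3.31 and -2.99, mean -3.15 ± 0.23, SD, n = 2, limma adjusted p = 0.0348) and puf-7 (-2.36 and -2.97, mean -2.66 ± 0.43, SD, n = 2, limma adjusted p = 0.0492). These are the partners of puf-5 in oogenesis, and puf-6 and puf-7 are near-identical copies whose probes may not tell them apart. Of 6 other CCCH genes, 1 was at least 2-fold lower on both arrays, 0 were lower or higher past the limma test, and the median was -0.57. At an unadjusted limma p under 0.05, in either direction, 1 of them passed, against 2768 of all 14777 genes. The largest means were those of gla-3 (-2.35 and -2.13, mean -2.24 ± 0.15, SD, n = 2, limma adjusted p = 0.0636) and ccch-2 (-0.02 and 2.18, mean 1.08 ± 1.56, SD, n = 2, limma adjusted p = 0.388).

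A further list held 11 measured genes of RNA binding or RNA processing, most but not all of them known for germline roles. Genes such as asd-2, etr-1 and rnp-3 are not particular to the germline, so the list median does not describe germline genes alone. Here, likewise, 0 passed the limma test in either direction, and 3 had an unadjusted limma p under 0.05, against 2768 of all 14777 genes. The median was -0.45, with means from -2.67 to 0.38. At least 2-fold lower on both arrays were 3 of the 11, against 7.35% of all genes. The largest means there were those of cpb-3 (-2.67 ± 0.91) and gld-4 (-2.51 ± 0.40, both SD, n = 2; limma adjusted p = 0.0647 and 0.0550). The first encodes a protein of the cytoplasmic polyadenylation element-binding family and the second a poly(A) polymerase.

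**Figure D3:**
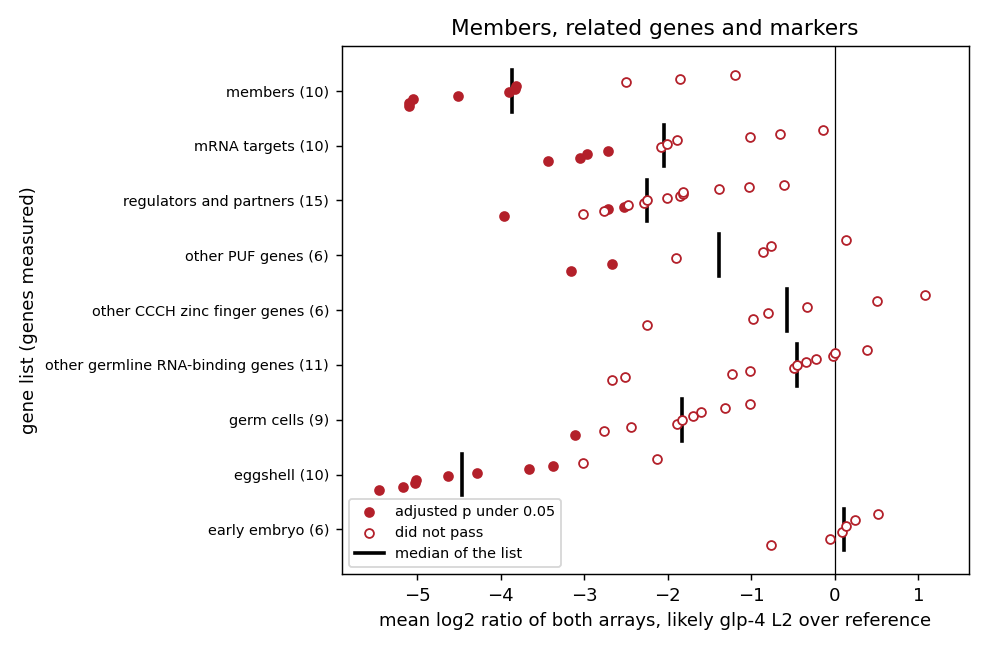
Mean log2 ratio of both arrays (x axis) for each gene of the maternal RNA-binding protein group, of the related lists and of 3 marker lists (y axis, genes measured in brackets); filled points passed the limma test, open points did not, and the black bar is the median. The median is -3.87 for the members, -2.05 for their messenger RNA targets and -4.46 for eggshell genes. Early embryo genes lie around 0, and whether their signal was above background is unknown.

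Markers of germ cells and of other tissues were set beside the members. Germ cell markers had a median of -1.82 over 9 measured genes, with means from -3.11 to -1.02. All 9 were below 0 on both arrays, against 30.8% of all genes. At least 2-fold lower on both arrays were 7 of the 9, against 7.35% of all genes. By the limma test 1 was lower, against 1.50% of all genes. Eggshell genes, which are made in oocytes, had a median of -4.46 over 10, with means from -5.45 to -2.13. Past the test 8 of the 10 were lower, against 1.50% of all genes. Below 0 on both arrays were 9 of the 10, against 30.8% of all genes, and 9 were at least 2-fold lower on both, against 7.35%. The arrays disagreed in sign for perm-4, whose mean of -2.13 came from 0.85 in preparation 1 and -5.11 in preparation 2. The 6 measured zygotic genes of the early embryo, out of 10 listed, had a median of 0.11, with means from -0.76 to 0.52. Signal over background is unknown, so values near 0 do not show that their RNA was present in either channel. Of these embryo genes 0 were called by limma in either direction. None had an unadjusted limma p under 0.05, which 2768 of all 14777 genes had in either direction. Markers of body muscle (6 genes), neurons (8) and intestine (5) had medians of -0.12, 0.02 and 1.02, but their members went both ways and the arrays differed. Muscle means ran from -2.13 for unc-54 to 2.62 for ttn-1, the 1 muscle gene higher past the limma test, against 0.365% of all genes. The muscle list medians were 0.91 and -0.64 for preparations 1 and 2. Neuron means ran from -1.38 to 1.03, and the list medians were 0.44 and -0.26. Of the neuron genes 0 were called by limma and 1 had an unadjusted limma p under 0.05, against the same 2768 of all 14777 genes. Intestine means ran from -0.07 to 2.76 for pept-1, the 1 intestine gene called higher, against 0.365% of all genes. The intestine list medians were 1.85 and 0.43. The part of germ cell number, stage or genotype in the members' ratios was not tested.

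The genes on either side of the members on the chromosome, by the RefSeq annotation of assembly WBcel235, were read in the same way. The members lie on chromosomes I (mex-3), II (mex-1, mex-6 and puf-5), III (pie-1), IV (mex-5 and oma-1) and V (oma-2, pos-1 and spn-4). Of the 20 nearest measured neighbours, 2 for each member, 1 was lower past the limma test, against 1.50% of all genes, and 2 were reduced at least 2-fold on both arrays, against 7.35%. Their median mean log2 ratio was -0.25. The one past the test was vha-18, next to pos-1, at -3.11 and -2.76 (mean -2.93 ± 0.25, SD, n = 2, limma adjusted p = 0.0400), and the other was rec-8, a meiotic cohesin gene next to mex-5, at -1.35 and -1.54 (limma adjusted p = 0.153). Both were singled out after their values were seen. In each case the member was lower than either neighbour.

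**Figure D4:**
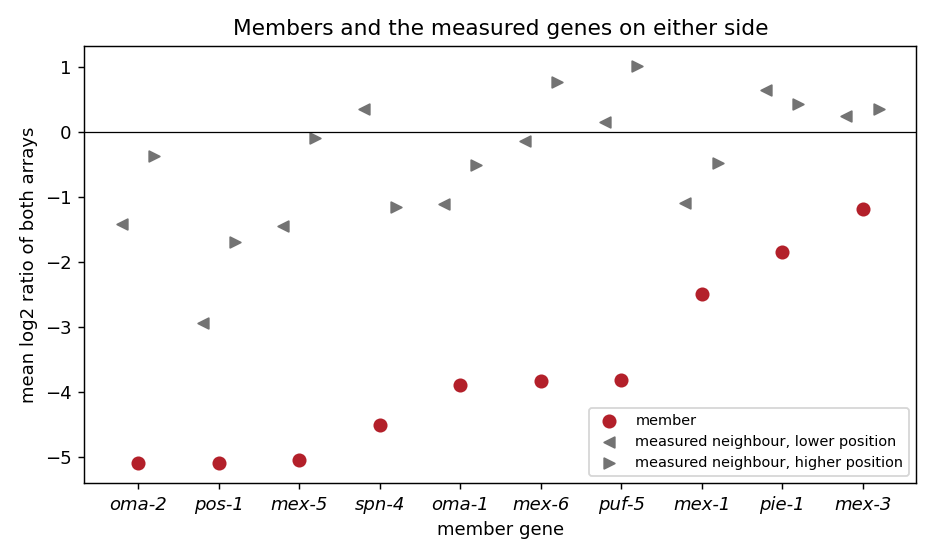
Mean log2 ratio of both arrays (y axis) of each maternal RNA-binding protein gene (red circles, x axis) and of the nearest measured gene on either side of it (grey triangles pointing left for the lower and right for the higher chromosome position). Every member lies below both of its neighbours, whose means run from -2.93 to 1.02.

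Outside the members, the related lists and the marker lists, the 5 named genes nearest to the members' median point over the 2 arrays were msp-77, plk-3, mei-2, msp-113 and msp-152. Of the markers only the msp genes stayed in this search, so eggshell and germ cell markers could not appear. Likeness was the straight-line distance on the log2 scale from that point, which lay at -4.17 for preparation 1 and -3.78 for preparation 2, and it ran from 0.18 for msp-77 to 0.28 for msp-152. The msp genes encode major sperm proteins, among those used above for the sign of the ratio. The gene mei-2 encodes a subunit of the meiotic spindle katanin (-3.94 and -3.67) and plk-3 a polo-like kinase (-3.99 and -3.84). Likeness over 2 arrays is a weak description, since each point is only a pair of values.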

How the data were processed

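A single value for each probe of an array was deposited, for 21632 probes, of which 21472 had a value for preparation 1 and 21202 for preparation 2. These deposited values were read as log2 ratios, because the antilogarithm to base 2, times 1000, fell within 0.002 of a whole number for 99.1% and 98.8% of them, against 1.14% or less for other bases or the inverse. The sources used here do not give the scanner, background correction, scaling or centring. Probes with exactly 1 annotated gene (16450; 247 had several and 4935 none) were named by Entrez ID through RefSeq (16360 matched) and averaged per gene. The test of each gene's mean against 0 used limma 3.58.1 (lmFit and eBayes, R 4.3.3), with 1 residual and 4.52 prior degrees of freedom. A single reference RNA serves as control, which leaves the control's variation out of the p-values, and dye bias is uncorrected because no dye swap is recorded. The test was also run on simulated data with independent errors, drawn from the spread that limma fitted here. Such data hold no array offset, dye bias or shared reference, so the run cannot show how the test handles these.

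The members, lists and tests were chosen with earlier results of these data known. Named are all members, from each related list up to 3 genes by size of the mean among those called, or 2 where none was called, and the 5 nearest genes. The chromosome neighbours were added after the values were seen. Alternatives were centring, quantile normalization, limited ratios, a robust prior, other handling of probes, other thresholds and leaving out an array.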

Additional observations from a re-analysis of the deposited data

How the results depend on the processing

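No paired analysis was possible because there is 1 group of 2 arrays. Every member kept its sign under the 7 alternatives with a test and on each array alone, and of 70 tested member ratios 2 gained (both mex-1) and 1 lost (puf-5) the call. With each array centred, which moves the preparation 1 array by 0.10, the count of all genes past the limma test rose from 275 to 467 and of related genes from 8 to 15. Quantile normalization gave 605 and 17, and ratios limited to 5 gave 140 and 2. At an adjusted p under 0.01, limma called 0 members, 0 related genes and 0 genes in all, and at an unadjusted p under 0.05 it called 27 related genes and 2768 in all. The members' median was -3.78 without replicate 1 and -4.17 without replicate 2, where a single array leaves no test. With every sign turned the median would be 3.87. The cause of these changes was not tested. Signal over background is unknown, so a low ratio may be limited by the dim channel.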
